A study of Mus musculus with 12 samples.

Results

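The B-class Eph receptors and the ephrin-B ligands were read out across the nuclei of 12 mouse lungs. The members are the rows of the count matrix whose symbol is Ephb1, Ephb2, Ephb3, Ephb4, Ephb6, Efnb1, Efnb2 or Efnb3, that is 5 receptors and 3 ligands, and all 8 were found among the 31053 genes of the files. Single nucleus RNA sequencing (snRNA-Seq) counts molecules of RNA per nucleus as unique molecular identifiers (UMIs), and each library came from the frozen lung of 1 C57BL/6J mouse. The mice were 7 weeks old when they received either PBS or 1.2 U/kg bleomycin into the trachea, the usual mouse model of pulmonary fibrosis (PF). From day 5, for 5 days, they were gavaged daily with NVP-BHG712, an inhibitor of the EphB4 receptor tyrosine kinase, or with its vehicle of N-methyl-2-pyrrolidone and PEG 300, and lungs were taken at day 14. This gave 4 groups of 3 mice, here called PBS/vehicle, PBS/NVP, bleomycin/vehicle and bleomycin/NVP. No group carried a genetic change, and treatment stopped before the lungs were collected.

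After filtering, 44611 nuclei were used, between 1168 and 11867 per library, and all but 1607 of them fell into 20 cell classes named from marker lists that held no Eph or ephrin gene. All Eph and ephrin genes were also left out of the clustering. Libraries held 3556084 to 61947690 UMIs. The 3 bleomycin/vehicle libraries stood apart: their median mitochondrial share per nucleus was 2.56%, 1.32% and 0.668%, against 0 to 0.0496% in the other 9. Their labels give batches 6 and 7, whereas the bleomycin/NVP libraries carry run 4 and the PBS libraries runs 1 to 3, so for every comparison that includes a bleomycin group, the run and the treatment cannot be told apart. At most 34 barcodes were shared by any pair of libraries. Every library had the expression of a male lung, with Xist at no more than 1.42 UMIs per 1000000 UMIs (CPM) and the Y-linked Uty at 278 to 384 CPM, which bears on the X-linked Efnb1.

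Eph receptors are tyrosine kinases that meet ligands anchored in the membrane of a neighbouring cell, so that binding sends a forward signal into the cell with the receptor and a reverse signal into the cell with the ephrin. EphB4 and its preferred ligand ephrin-B2 are best known from the vasculature, where ephrin-B2 marks arteries and EphB4 marks veins. Ephrin ectodomains can be released by metalloproteases such as ADAM10, and RASA1 is a Ras GTPase-activating protein that acts downstream of EphB4 in vessels. The genes lie apart in the genome (GRCm38, GENCODE M21). Efnb1 spans chrX:99136130-99148991, Efnb2 chr8:8617434-8661242 and Efnb3 chr11:69554092-69560205. The receptors are at chr9:101922128-102354693 for Ephb1, chr4:136647539-136835988 for Ephb2, chr16:21204755-21223305 for Ephb3, chr5:137350109-137378669 for Ephb4 and chr6:41605482-41620509 for Ephb6. Ephb4 is overlapped by Zan on the opposite strand.

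Members differed widely in how well they were counted, and each was read in its own set of classes. Over all nuclei used there were 16665 UMIs of Efnb2, 5642 of Ephb4, 3974 of Efnb1, 2244 of Ephb3, 1401 of Ephb2, 1104 of Ephb1, 112 of Ephb6 and 109 of Efnb3. Levels below are CPM, the UMIs of a gene per 1000000 UMIs of the same class in the same library, averaged over libraries with at least 20 nuclei of the class. The classes were built from these same nuclei, so differences between classes are described and not tested.

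**Figure D1:**
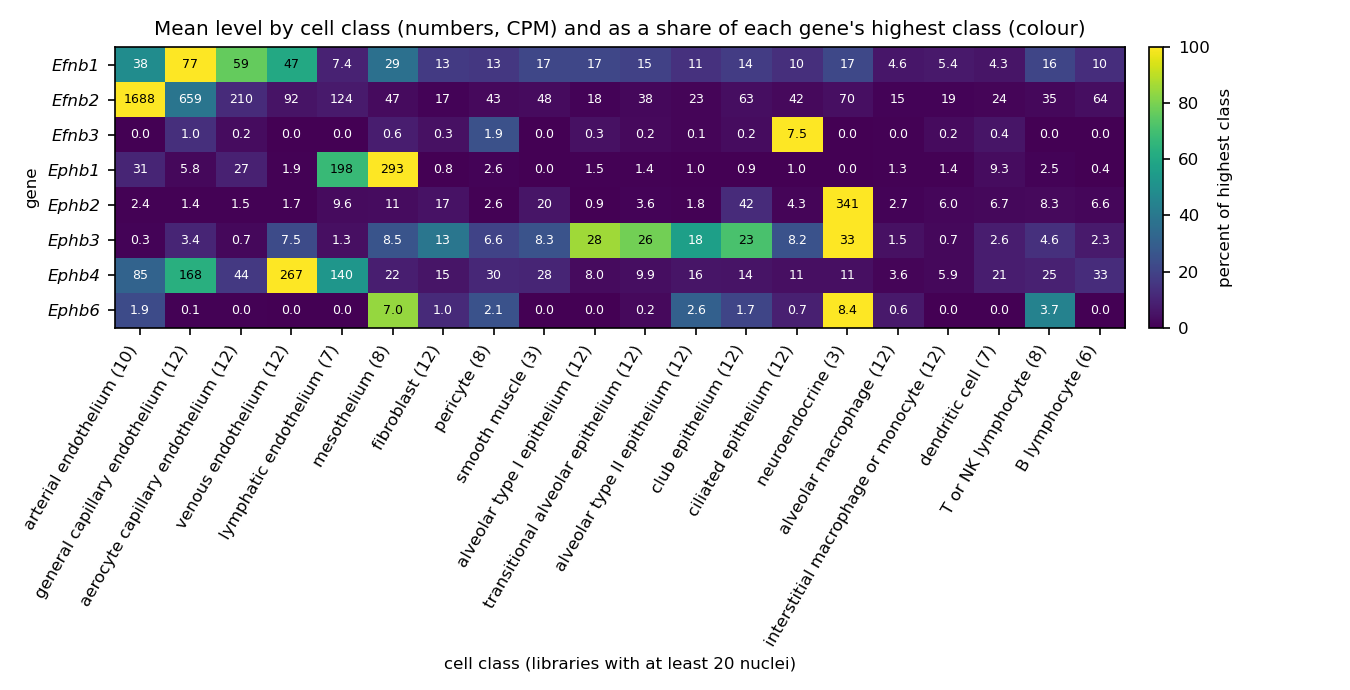
Heatmap of the members by cell class, where the number in a cell is the mean CPM over the libraries with at least 20 nuclei of the class (their number is in parentheses) and the colour is that mean as a percent of the gene's highest class. Efnb2 and Ephb4 peaked in different endothelial classes, at 1688 CPM in arterial and 267 CPM in venous nuclei, while Ephb2 was highest in neuroendocrine nuclei (341 CPM), Ephb3 in neuroendocrine (32.6 CPM, 3 libraries) and alveolar type I nuclei (28.0 CPM), and Ephb1 in mesothelium (293 CPM).

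Among the ligands, Efnb2 was read first in arterial endothelium, at 1688 ± 494 CPM (SD, n = 10). General capillary endothelium followed at 659 ± 172 CPM (n = 12) and was lower than arterial in 10 of 10 libraries. Aerocytes, the capillary cells specialised for gas exchange, held 210 ± 63.2 CPM and were below general capillaries in 12 of 12. Lymphatic (124 ± 86.5 CPM, n = 7) and venous endothelium (92.0 ± 41.1 CPM, n = 12) came last among the endothelial classes, and their levels did not differ beyond their spread. Endothelial nuclei made up 21.9% of nuclei and held 72.6% ± 15.5 (SD, n = 12) of Efnb2 UMIs. Outside the endothelium the highest level was in 1 fibroblast state, the peribronchial fibroblasts, at 222 ± 107 CPM (n = 10) against 6.33 ± 3.39 CPM in alveolar fibroblasts (n = 12), with the peribronchial state higher in 10 of 10 libraries. Peribronchial nuclei were 4.71% ± 0.917 of fibroblasts and gave 45.8% of fibroblast Efnb2 UMIs.

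Efnb1, the ligand encoded on the X chromosome, was spread more evenly over the vasculature. It averaged 77.4 ± 26.8 CPM in general capillaries, 59.2 ± 19.7 CPM in aerocytes, 46.8 ± 28.9 CPM in venous (each n = 12) and 37.7 ± 17.9 CPM in arterial endothelium (n = 10). Neighbours in that order overlapped, the higher class leading in 9 of 12, 8 of 12 and 8 of 10 libraries. Lymphatic endothelium was an exception at 7.39 ± 9.83 CPM (n = 7). Endothelial nuclei held 42.7% ± 12.1 of Efnb1 UMIs. Efnb3, the ligand known from the nervous system, was almost unread, and 47 of its 109 UMIs came from ciliated epithelium, where it averaged 7.47 ± 6.43 CPM (n = 12).

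Of the receptors, Ephb4 had the pattern complementary to Efnb2 at the arterial and venous ends. It was highest in venous endothelium (267 ± 70.4 CPM, n = 12) and lower in general capillaries (168 ± 44.9 CPM) in 12 of 12 libraries. Lymphatic endothelium held 140 ± 72.4 CPM (n = 7), arterial endothelium 84.8 ± 45.9 CPM (n = 10) and aerocytes 44.3 ± 22.9 CPM (n = 12). General capillary and lymphatic levels, and lymphatic and arterial levels, did not differ beyond their spread. Next came classes of few nuclei, B lymphocytes at 33.4 ± 20.7 CPM (n = 6) and pericytes at 29.99 ± 20.8 CPM (n = 8), which also held endothelial markers (1928 and 1025 CPM for the 8 pan-endothelial markers together). Fibroblasts held 15.5 ± 3.50 CPM, close to alveolar type II epithelium at 15.6 ± 5.02 CPM, and alveolar macrophages came last at 3.61 ± 3.44 CPM (each n = 12). Endothelial nuclei gave 61.8% ± 11.1 of Ephb4 UMIs, with libraries from 40.0% to 79.3%. Venous nuclei alone gave 15.6% from 2.52% of the nuclei, and fibroblasts 14.3% ± 3.98 from 23.8%.

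The arterial and venous contrast held library by library. In the 10 libraries with both classes, Efnb2 was 16.9 times higher in arterial nuclei (1688 against 99.6 CPM) and Ephb4 was 3.21 times higher in venous nuclei (272 against 84.8 CPM), each in 10 of 10. Among other genes of vessel identity, Dll4 and Nrp2 were picked after their values were seen. Dll4 read 157 CPM in arterial and 5.02 in venous nuclei, and Nrp2, a venous co-receptor, 12.9 and 302 CPM, also in 10 of 10. Efnb2 and Ephb4 were both read in general capillaries, the most numerous endothelial class with 5433 nuclei. When every nucleus was thinned to 1000 UMIs and shallower nuclei were left out, 41.9% of general capillary nuclei had an Efnb2 UMI and 16.5% an Ephb4 UMI, compared with 52.6% and 28.3% before thinning. Thinned shares were 67.6% for Efnb2 in arterial and 23.9% for Ephb4 in venous nuclei (79.1% and 41.2% before thinning). Thinning left out 1159 of 7533 PBS/vehicle, 1092 of 11819 PBS/NVP, 4157 of 20414 bleomycin/vehicle and 1109 of 4845 bleomycin/NVP nuclei.

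**Figure D2:**
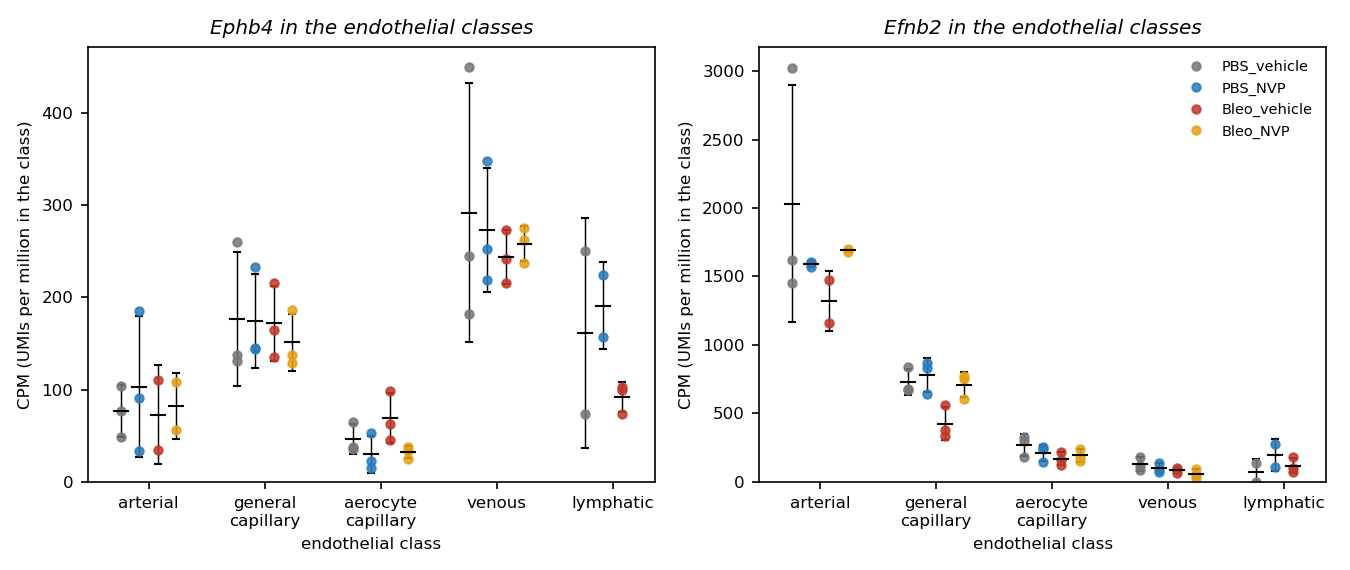
Ephb4 (left) and Efnb2 (right) in the 5 endothelial classes, in CPM from 0, with 1 point per library coloured by group and bars at each group's mean ± SD. Efnb2 runs down from arterial (1688 CPM) to venous (92.0 CPM) nuclei and Ephb4 is highest in venous nuclei (267 CPM). The Efnb2 points of bleomycin/vehicle lie below all others in general capillaries (331 to 564 CPM).

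Droplets can carry RNA from other cells, so low levels outside the endothelium were set beside the UMIs that carried-over endothelial RNA would give, scaled from 8 pan-endothelial markers in each library. Ephb4 in fibroblasts came to 605 UMIs against 77.9 by that estimate, a ratio of 7.76, and exceeded the estimate in 12 of 12 libraries. Alveolar type II epithelium had 188 Ephb4 UMIs against 25.1. B lymphocytes had 32 against 24.1, above the estimate in 4 of 11 libraries, and pericytes 56 against 35.8, above it in 6 of 12, so their levels are not told from background here. Alveolar macrophages had 50 against 59.7 and interstitial macrophages 33 against 31.2, which is the level of background and is not read here as expression. After thinning, 1.49% of fibroblast nuclei and 0.597% of alveolar macrophage nuclei had an Ephb4 UMI (5.49% and 1.35% before, at median depths of 3141 and 2312 UMIs). Efnb2 in alveolar macrophages was likewise at the estimate, 171 against 173 UMIs, while peribronchial fibroblasts had 310 against 21.9.

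Ephb1, a receptor that binds all ephrin-B ligands, was most prominent in mesothelium, the sheet that covers the lung, at 293 ± 132 CPM (n = 8). Lymphatic endothelium followed at 198 ± 172 CPM (n = 7) and was below mesothelium in 5 of 5 libraries. Mesothelium was 1.41% of all nuclei and gave 50.7% ± 27.5 of Ephb1 UMIs per library. The next class, arterial endothelium, averaged 30.6 ± 49.1 CPM (n = 10). After thinning, 19.0% of mesothelial and 8.70% of lymphatic nuclei had an Ephb1 UMI.

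Ephb2, a receptor known from axon guidance and from sorting of cells along the intestinal crypt, had its highest levels in rare cells. Neuroendocrine nuclei, 122 in all, held 415, 312 and 296 CPM in the 3 libraries with enough of them. Adventitial fibroblasts, which line the larger vessels and airways, held 164 ± 55.1 CPM (n = 10), above the peribronchial state (51.4 ± 31.3 CPM, n = 10) in 9 of 9 libraries. The state called other fibroblasts had 37.3 ± 21.5 CPM, whereas fibrotic (4.08 ± 4.91 CPM) and alveolar fibroblasts (3.36 ± 5.88 CPM, each n = 12) were near the bottom. Adventitial nuclei were 5.24% ± 1.40 of fibroblasts and gave 38.9% of fibroblast Ephb2 UMIs. The larger share, 42.5%, came from other fibroblasts, which were 18.2% ± 3.41 of fibroblasts. Club cells of the airway averaged 42.1 ± 22.1 CPM (n = 12).

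Ephb3, which shares its ligands and crypt role with Ephb2, was read mainly in epithelium. Its highest mean was in neuroendocrine nuclei, at 71.8, 9.17 and 16.8 CPM in 3 libraries (32.6 ± 34.2). Among classes read in every library it averaged 28.0 ± 7.50 CPM in alveolar type I, 25.7 ± 10.7 CPM in transitional alveolar, 23.2 ± 7.61 CPM in club and 18.3 ± 3.36 CPM in alveolar type II epithelium (each n = 12), and these neighbours did not differ beyond their spread. Fibroblasts held 12.8 ± 3.41 CPM and general capillaries 3.41 ± 5.23 CPM. Alveolar type I nuclei gave 41.3% of Ephb3 UMIs. Ephb6, whose kinase domain is inactive, was low in every class, with 8.38 ± 8.01 CPM in neuroendocrine nuclei (n = 3) and 7.04 ± 6.02 CPM in mesothelium (n = 8).

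Genes were then ordered by how like their level over 18 classes was to that of each member. By Pearson's r over the class means of log2(CPM + 1), among 8682 genes, Ephb4 was closest to Cdr2l (0.94), Spns2 (0.91), Tie1 (0.91), Thsd1 (0.90) and Mmp28 (0.90). Efnb2 was closest to Dll4 (0.93), a Notch ligand of arteries, then Arl15 (0.90), Smad6 (0.89), Sox17 (0.89) and Cldn5 (0.86). For Efnb1 the order was Rapgef3 (0.90), Ptprg (0.88), Id1 (0.88), Smad6 (0.87) and Vsig2 (0.86). Genes of motile cilia, Lrrc23 (0.90), Dnah3 (0.90) and Dnaic1 (0.89), with Kndc1 (0.89) and Fank1 (0.88), stood nearest to Efnb3. Ephb1 was most like Pkhd1l1 (0.86), Ap4e1 (0.77), Ctif (0.75), Pdgfd (0.75) and Ndrg1 (0.74), and Ephb2 most like Fat3 (0.84), Zfp36l1 (0.84), Aldh1a1 (0.84), Fam46c (0.83) and Cp (0.81). Tead3 (0.88), Nrbp2 (0.88), Fdx1 (0.87), Ip6k2 (0.87) and Col4a5 (0.86) resembled Ephb3. The nearest genes to Ephb6 were Zfp251 (0.80), Stk39 (0.80), Rhbdl3 (0.79), Tasp1 (0.78) and Dnajc6 (0.77). The 18 points share libraries and differ in depth, and r is given as a description.

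Whether bleomycin or NVP-BHG712 changed the members was tested in 12 classes that kept at least 2 libraries in every group, on UMIs summed per library. Of the 96 pairs of member and class, 25 had enough counts to pass the filter, 10 of them for Efnb2, 5 each for Efnb1 and Ephb4, 3 for Ephb3 and 2 for Ephb2. Ephb1, Ephb6 and Efnb3 passed in no class. A pair that passes only because 1 group is high would be favoured by such a filter, so the counts that follow describe the 25 tests and not all members. Since members come from bulk sums over a class, fewer nuclei of a state within the class and less RNA per nucleus cannot be told apart.

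Bleomycin in mice given vehicle gave no call. By edgeR's quasi-likelihood test with Benjamini-Hochberg adjustment over all genes of a class, 0 of 25 tests passed an adjusted p of 0.05 against PBS/vehicle, where 2.61% of all tests did, and 4 of 25 had an unadjusted p under 0.05 (13.8% of all tests). DESeq2 also gave 0. The median log2 fold change of the 25 was -0.14, beside -0.01 over all tests. In 2 of 25, Efnb2 in general capillaries and Ephb2 in club cells, the groups did not overlap, compared with 18.4% of all tests.

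Efnb2 in general capillaries read 838, 679 and 667 CPM in PBS/vehicle, 832, 865 and 637 in PBS/NVP, 377, 331 and 564 in bleomycin/vehicle and 602, 769 and 752 in bleomycin/NVP. All 3 bleomycin/vehicle libraries lay below every other library. The log2 difference was -0.66 (SE 0.21, adjusted p = 0.097) against PBS/vehicle and 0.65 (SE 0.21, adjusted p = 0.095) for bleomycin/NVP against bleomycin/vehicle, 2 comparisons that share the same 3 libraries. Neither passed. Without bleomycin/vehicle replicate 3 both did, at -0.98 (adjusted p = 0.0057) and 0.97 (adjusted p = 0.0076). In the other 11 of 12 fits with 1 library left out, neither did. Over the 12 fits the differences ran from -0.98 to -0.51 and from 0.50 to 0.97. With no filter on low counts the first also passed (adjusted p = 0.047). Over all settings the adjusted p reached 0.55 and 0.44. In aerocytes Efnb2 differed by -0.60 (adjusted p = 0.52) after bleomycin and in all nuclei summed by -0.66 (SE 0.24, adjusted p = 0.17).

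Ephb2 in club cells read 14.4, 31.9 and 26.4 CPM in PBS/vehicle and 94.5, 46.9 and 55.1 CPM in bleomycin/vehicle, without overlap. PBS/NVP gave 27.3, 31.2 and 39.0 CPM and bleomycin/NVP 68.7, 43.7 and 26.5 CPM, which spans both. The log2 difference after bleomycin was 1.35 (SE 0.40, adjusted p = 0.066).

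**Figure D3:**
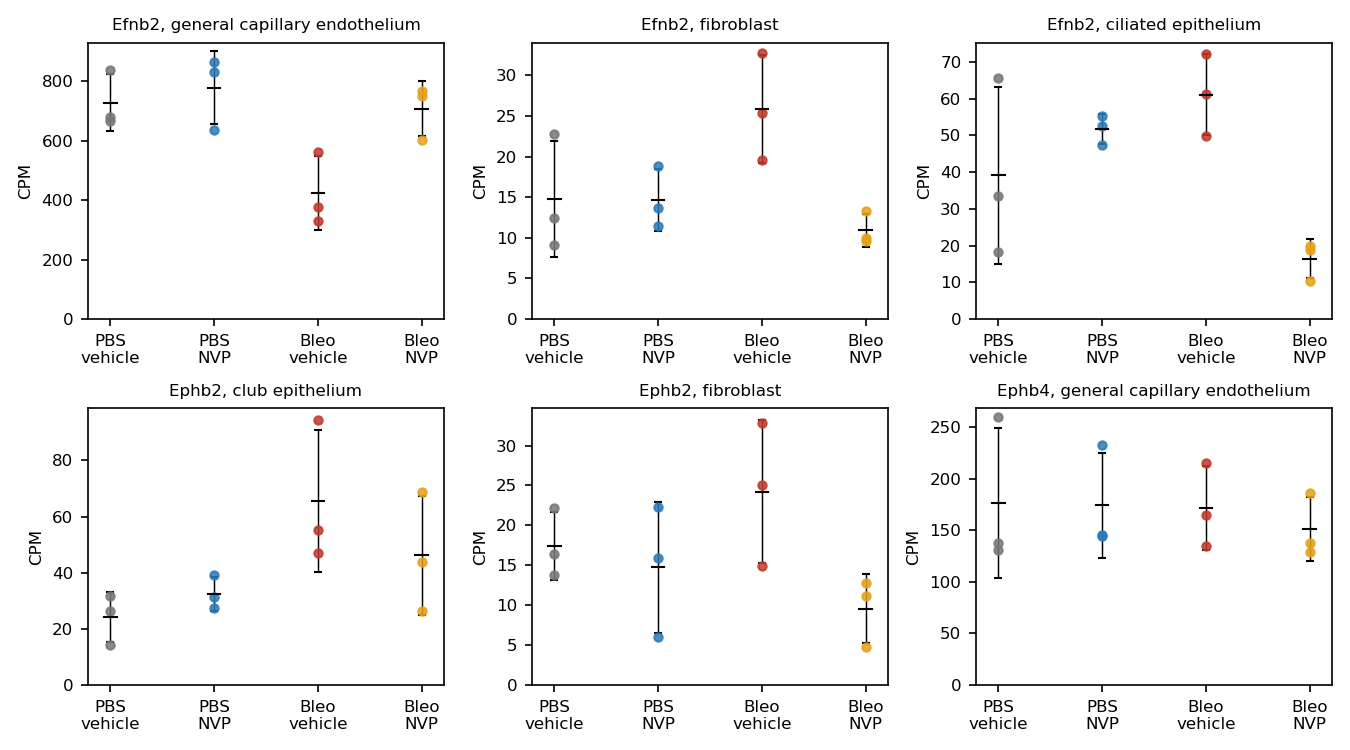
Level of Efnb2 in general capillary, fibroblast and ciliated nuclei, of Ephb2 in club and fibroblast nuclei and of Ephb4 in general capillary nuclei, in CPM from 0, with 1 point per library and bars at each group's mean ± SD. Efnb2 in general capillaries is lowest in bleomycin/vehicle (331 to 564 CPM), Efnb2 in ciliated nuclei is lowest in bleomycin/NVP (10.4 to 19.96 CPM, against 18.2 in the lowest PBS/vehicle library), and the groups of Ephb4 overlap.

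NVP-BHG712 after bleomycin gave 1 call, a lower Efnb2 in ciliated epithelium. That is 1 of 25 tests, where 3.5% of all tests passed, and 5 of 25 had an unadjusted p under 0.05 (16.7% of all tests). Ciliated nuclei read 61.3, 72.0 and 49.8 CPM in bleomycin/vehicle and 19.96, 18.9 and 10.4 CPM in bleomycin/NVP, from 4, 54 and 94 and from 3, 6 and 2 UMIs. The groups did not overlap. The difference was -1.99 on the log2 scale (SE 0.50, adjusted p = 0.031), and 4.04% of the genes tested in ciliated nuclei were called lower. PBS/vehicle libraries read 65.6, 33.4 and 18.2 CPM and PBS/NVP libraries 47.2, 55.3 and 52.4 CPM. The interaction, which asks whether the inhibitor's difference depends on bleomycin, was -2.22 (adjusted p = 0.14). Carried-over endothelial RNA moved with this result: the 8 pan-endothelial markers together read 1095 CPM in ciliated nuclei of bleomycin/vehicle, 300.2 in PBS/vehicle, 420 in PBS/NVP and 111 in bleomycin/NVP. Scaled from them, 85.8 of 152 Efnb2 UMIs in bleomycin/vehicle and 2.69 of 11 in bleomycin/NVP would be carried over, and their part in the result was not tested. The call was lost when nuclei above 1% mitochondrial UMIs or under 500 UMIs were left out (adjusted p = 0.066) and without either bleomycin/vehicle replicate 1 (0.051) or 2 (0.28) or any bleomycin/NVP replicate (0.082 to 0.12).

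Efnb2 in fibroblasts came next. Libraries read 22.7, 12.4 and 9.11 CPM in PBS/vehicle, 18.9, 13.6 and 11.5 in PBS/NVP, 32.8, 25.3 and 19.6 in bleomycin/vehicle and 13.3, 9.61 and 9.95 in bleomycin/NVP, so that the bleomycin groups did not overlap. The log2 difference was 0.70 (SE 0.31, adjusted p = 0.23) after bleomycin and -1.13 (SE 0.34, adjusted p = 0.054) with the inhibitor, short of the threshold. DESeq2 called the second (adjusted p = 0.042). The fibroblast states did not move alike. After bleomycin the difference was 1.14 in alveolar (adjusted p = 0.27) and -1.22 in peribronchial fibroblasts (adjusted p = 0.30), neither called. Peribronchial nuclei gave 65.8% of fibroblast Efnb2 UMIs in PBS/vehicle and 31.1% in bleomycin/vehicle, where fibrotic fibroblasts gave 30.7% and made up 42.5% ± 14.3 of fibroblasts (22.9% ± 2.90 in PBS/vehicle). The fibrotic state depended on the clustering: it held 2963 nuclei here, 1839 without Harmony and 487 at resolution 2, and no cluster was given that name with the stricter filter on nuclei or with doublets kept, so its shares hold for this clustering alone.

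Ephb2 in fibroblasts read 32.8, 25.02 and 14.9 CPM in bleomycin/vehicle and 4.74, 12.8 and 11.2 CPM in bleomycin/NVP. The groups stood apart by little, at -1.10 (SE 0.44, adjusted p = 0.15). Groups did not overlap in 6 of 25 tests of the inhibitor after bleomycin, near the 23.8% of all tests, and the other three were Efnb2 in arterial endothelium (2 libraries each), Efnb2 in general capillaries and Ephb4 in aerocytes.

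Ephb4, the target of the drug, was called in no class and no comparison. General capillaries read 260, 131 and 137 CPM in PBS/vehicle, 233, 144 and 146 in PBS/NVP, 215, 135 and 165 in bleomycin/vehicle and 187, 138 and 129 in bleomycin/NVP. The groups overlapped, and the first replicate was the highest in each. The log2 difference was -0.07 after bleomycin, with an interval of 2 standard errors from -0.61 to 0.47, and -0.21 with the inhibitor after bleomycin (-0.79 to 0.37). Venous nuclei read 450, 245 and 182 CPM in PBS/vehicle, 348, 252 and 219 in PBS/NVP, 242, 274 and 215 in bleomycin/vehicle and 237, 275 and 262 in bleomycin/NVP. Differences there were -0.21 (-0.82 to 0.39) and -0.02 (-0.67 to 0.64). 

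In fibroblasts Ephb4 lay between 10.98 and 22.5 CPM in all 12 libraries, with means of 15.1 ± 2.70, 14.6 ± 1.54, 18.4 ± 4.39 and 13.8 ± 1.89 CPM (SD, n = 3) in PBS/vehicle, PBS/NVP, bleomycin/vehicle and bleomycin/NVP. The log2 difference was 0.23 (SE 0.26, adjusted p = 0.71) after bleomycin and -0.39 (SE 0.28, adjusted p = 0.43) with the inhibitor. Aerocytes read 98.7, 62.7 and 45.1 CPM in bleomycin/vehicle and 24.97, 37.9 and 33.6 CPM in bleomycin/NVP, without overlap, and the difference of -0.95 (SE 0.45, adjusted p = 0.40) did not pass. Over all nuclei Ephb4 averaged 32.8 ± 10.9 CPM in PBS/vehicle and 33.0 ± 7.35 CPM in bleomycin/vehicle, a log2 difference of 0.00 (-0.57 to 0.57).

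**Figure D4:**
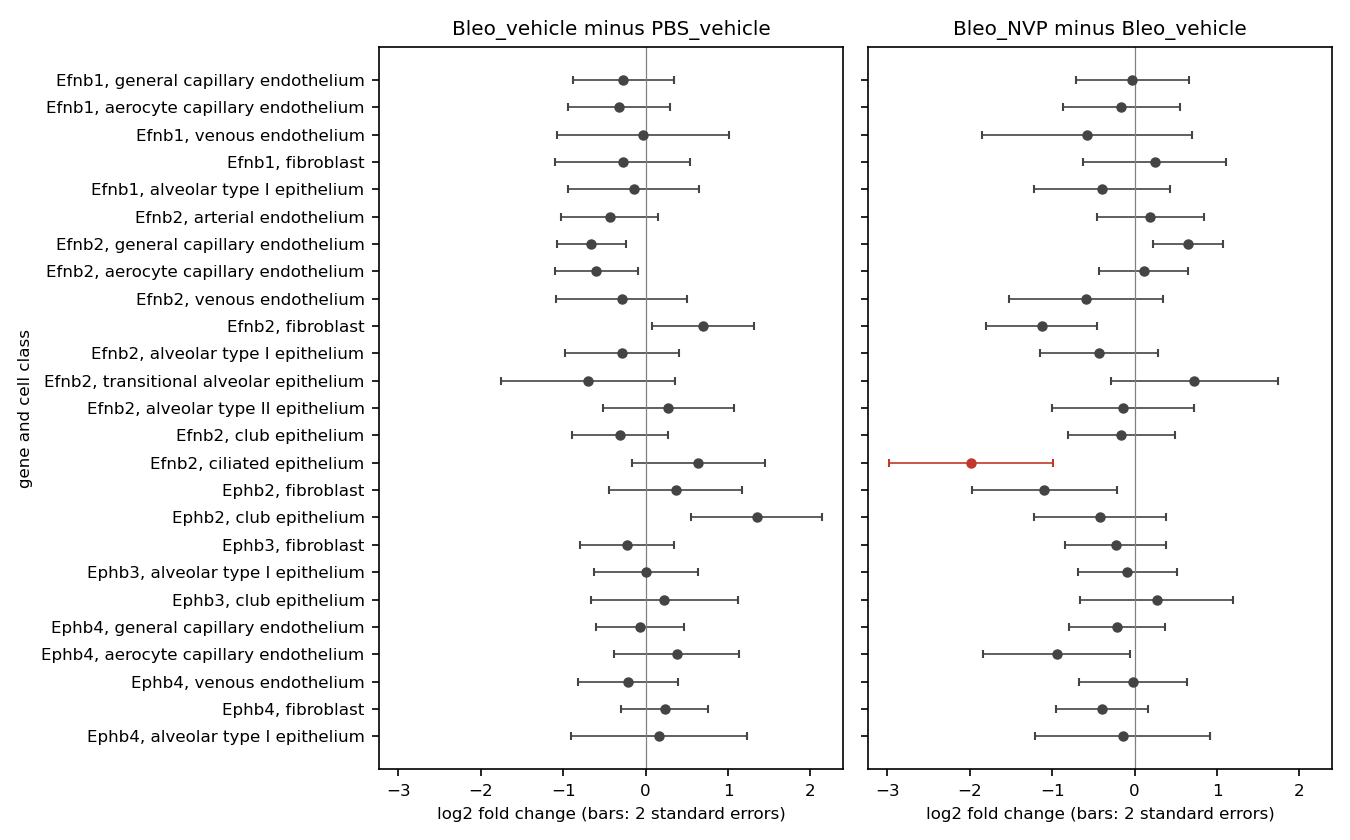
Log2 fold change of the 25 tested pairs of member and class for bleomycin/vehicle against PBS/vehicle and for bleomycin/NVP against bleomycin/vehicle, with bars of 2 standard errors. The red point, Efnb2 in ciliated epithelium (-1.99), is the 1 call. The Ephb4 bars cross 0 in all classes but aerocytes with the inhibitor (-0.95).

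In uninjured lungs NVP-BHG712 gave no call. By edgeR, 0 of 25 tests passed (0% of all tests), 0 had an unadjusted p under 0.05 (1.14% of all tests), and DESeq2 gave 0. Groups did not overlap in 1 of 25, Efnb2 in club cells, compared with 5.85% of all tests, and the median log2 fold change was -0.05. Bleomycin/NVP against PBS/NVP gave 0 of 25 calls as well (0% of all tests), with 2 unadjusted (3.18%) and 0 by DESeq2. There the groups did not overlap in 4 of 25, compared with 10.1%. The interaction gave 0 of 25 calls (0.347% of all tests), with 2 unadjusted (9.59%) and 0 by DESeq2. In all nuclei summed, 6 members were tested and edgeR called 0 after bleomycin (2.43% of all genes), 0 with the inhibitor after bleomycin (5.56%), 0 in the interaction (0.298%) and 0 in the 2 other comparisons (0%), with 1 of 6 at an unadjusted p under 0.05 after bleomycin and 0 in the rest.

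Ephb1 in aerocytes, singled out after its values were seen, had a wide gap between groups, although it did not pass the filter. It was at 1, 1 and 0 UMIs in PBS/vehicle, 4, 0 and 0 in PBS/NVP, 48, 46 and 33 in bleomycin/vehicle and 0, 0 and 1 in bleomycin/NVP. In bleomycin/vehicle these were 237, 61.4 and 15.8 CPM, and no other library passed 4.20 CPM. All 3 bleomycin/vehicle libraries lay above all 9 others, with a spread of their own that was wide. Since the pair was chosen for this gap, no test is given.

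The UMIs came from few nuclei, 18 of 136 (13.2%, Wilson 95% interval 8.54% to 19.95%), 15 of 445 (3.37%, 2.05% to 5.49%) and 9 of 634 (1.42%, 0.749% to 2.68%) in the 3 bleomycin/vehicle libraries, and 1 nucleus each reached 15, 11 and 19 Ephb1 UMIs. These 42 nuclei had a median of 1699.5 UMIs, beside 1987 in the 1173 without. Their aerocyte markers summed to 2964 CPM, against 4345 CPM in aerocytes without Ephb1, general capillary markers to 3880 against 3502 CPM, and pan-endothelial markers to 9384 against 10144 CPM. General capillary markers were thus above aerocyte markers in the nuclei with Ephb1 and below them in the others. All these sums pool 3 unlike libraries. Replicate 1 gave 18 of the 42 nuclei with Ephb1 from 136 aerocyte nuclei, and replicate 3 gave 9 from 634. Markers were not compared within a library, so a difference between nuclei and 1 between libraries cannot be told apart. Of the classes where Ephb1 is otherwise read, arterial markers summed to 502 against 348 CPM, mesothelial markers to 59.1 against 24.9 CPM and lymphatic markers to 68.9 against 89.3 CPM. In the nuclei with Ephb1 these rest on only 51, 6 and 7 UMIs. Under the stricter filter on nuclei (at least 500 UMIs, up to 1% mitochondrial) the count was 43 UMIs in bleomycin/vehicle and 7 in the other groups together, or 21.3 and 1.48 CPM (41.8 and 1.46 before). The higher mitochondrial share and the separate batches of these libraries go with the difference, and their part in it was not tested.

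**Figure D5:**
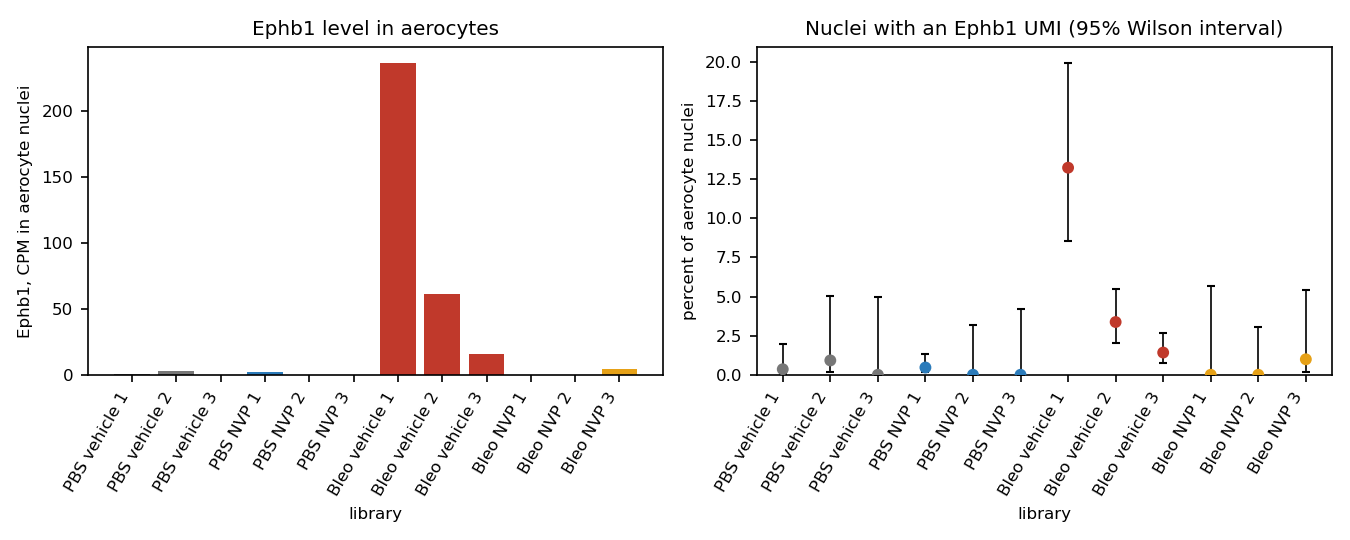
Ephb1 in aerocytes of the 12 libraries, as CPM per library (left, bars) and as the percent of nuclei with at least 1 Ephb1 UMI with its Wilson 95% interval (right). The bleomycin/vehicle libraries read 237, 61.4 and 15.8 CPM and 13.2%, 3.37% and 1.42% of nuclei, and the others 0 to 0.990% of nuclei.

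In some classes with few Ephb1 UMIs these also lay mostly in bleomycin/vehicle. Alveolar type II epithelium had 2, 2 and 3 UMIs there and 0 in the other 9 libraries, ciliated epithelium 0, 7 and 4 and otherwise 0, and interstitial macrophages 3, 3 and 4 and 1 in the other 9 together. Fibroblasts had 1, 9 and 14, against 2, 0 and 0 in PBS/vehicle. They had 3, 3 and 0 in PBS/NVP and 1, 0 and 2 in bleomycin/NVP, so the lowest bleomycin/vehicle count lay within the other groups. These are counts and are not scaled for depth. Interstitial macrophages of bleomycin/vehicle held 320840, 757961 and 2250468 UMIs of all genes, against at most 486771 in any other library. In alveolar type II epithelium 1 bleomycin/vehicle library held 4381700, against at most 2265912 in the other groups. The part of depth was not tested. In the classes where Ephb1 was highest, bleomycin/vehicle did not stand apart. Mesothelium read 254 and 176 CPM in PBS/vehicle, 268 and 494 in PBS/NVP, 245, 191 and 211 in bleomycin/vehicle and 506 in the 1 bleomycin/NVP library with enough nuclei, so bleomycin and PBS libraries overlapped. Lymphatic endothelium ranged from 56.8 to 551 CPM within PBS/vehicle alone. Arterial endothelium read 56.5 and 162 CPM in bleomycin/NVP and 0 to 26.1 CPM in the other 8 libraries, from 10 UMIs in bleomycin/NVP.

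The partners of the pathway were taken from 4 lists of 91 genes, for forward signalling from Eph receptors, reverse signalling from ephrin-B, cleavage of both, and TGF-beta and elastic fibres. In the 12 classes, 78 of these genes gave 590 tests. After bleomycin 28 were called, 26 higher and 2 lower, in 15 genes, which is 4.75% beside 2.61% of all tests. With the inhibitor after bleomycin 38 were called, 3 higher and 35 lower, in 17 genes, which is 6.44% beside 3.5%. These counts rest on few libraries: leaving out bleomycin/vehicle replicate 3 gave 93 and 88 calls, leaving out its replicate 2 gave 9 and 12, and leaving out its replicate 1 gave 19 and 25. Leaving out PBS/vehicle replicate 2 or 3 gave 12 after bleomycin, and leaving out a bleomycin/NVP replicate gave 6 to 10 with the inhibitor. Both comparisons share the bleomycin/vehicle libraries. In the 2 comparisons without them edgeR called 0, with 9 and 18 at an unadjusted p under 0.05.

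By list, forward signalling had 15 calls after bleomycin (13 higher) and 18 with the inhibitor (16 lower) in 336 tests. Reverse signalling had 8 (all higher) and 10 (9 lower) in 124, cleavage 2 and 3 in 66, and TGF-beta and elastic fibres 4 (all Eln) and 10 (all lower, 3 genes) in 92. Ciliated epithelium, the class where Efnb2 was called, had several. Pdzrn3, an ephrin-B binding protein with a ubiquitin ligase domain, rose there by 3.73 on the log2 scale (adjusted p = 0.032) after bleomycin and fell with the inhibitor (-3.62, adjusted p = 0.028). Kalrn, a guanine nucleotide exchange factor downstream of EphB receptors, read 230, 374 and 71.6 CPM in bleomycin/vehicle and 6.65, 25.2 and 5.21 CPM in bleomycin/NVP, a fall of 4.10 (adjusted p = 0.0049). Vav3, another exchange factor, changed by -2.85 (adjusted p = 0.028). It read 30.6, 197 and 49.8 CPM in bleomycin/vehicle, 6.65, 25.2 and 10.4 in bleomycin/NVP and 38.7, 15.2 and 6.07 in PBS/vehicle. Pdzrn3 read 107, 371 and 38.7 CPM in bleomycin/vehicle and 0, 15.8 and 31.3 in bleomycin/NVP. For each of these genes bleomycin/vehicle replicate 2 was the highest library. Whether RNA carried into these droplets takes part was not tested. These calls were not limited to ciliated nuclei. With the inhibitor Kalrn was called lower in 7 classes, by most in alveolar macrophages (-4.35, adjusted p = 0.018), Pdzrn3 in 4 and Vav3 in 2.

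Eln, which encodes the elastic fibre protein elastin, was called higher after bleomycin in 4 of 10 classes and lower with the inhibitor in 7 of 10. In fibroblasts it read 832, 470 and 211 CPM in PBS/vehicle, 805, 611 and 259 in PBS/NVP, 2741, 1096 and 1337 in bleomycin/vehicle and 253, 408 and 352 in bleomycin/NVP. All 3 bleomycin/vehicle libraries were above all others. Even so, fibroblasts were not among the 4 calls after bleomycin, which lay in aerocytes, alveolar macrophages, alveolar type II and ciliated epithelium. With the inhibitor fibroblasts were called lower (-2.26, adjusted p = 0.026). The calls thus included classes not known to make elastin. Ciliated nuclei read 13.5, 12.2 and 6.07 CPM in PBS/vehicle and 199, 443 and 34.5 CPM in bleomycin/vehicle (4.47, SE 0.83, adjusted p = 0.014), and Eln in alveolar macrophages rose by 4.05 (adjusted p = 0.0046). With the inhibitor Eln fell by 5.07 in ciliated (adjusted p = 0.0098), 5.09 in alveolar macrophage (adjusted p = 0.012) and 4.38 in alveolar type II nuclei (adjusted p = 0.0067). Whether fibroblast RNA carried into other droplets takes part in these was not tested.

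Rasa1, Adam10 and Nr2f2, which were to be named whatever their values, did not pass in any class. Rasa1 was called in 0 of 12 classes after bleomycin (log2 differences of -0.57 to 0.21, lowest adjusted p = 0.13) and in 0 of 12 with the inhibitor (0.04 to 0.77, lowest adjusted p = 0.069). Adam10, the protease that releases ephrin ectodomains, was called in 0 of 12 and 0 of 12 (lowest adjusted p = 0.37 and 0.28). Nr2f2, the transcription factor of venous identity, was called in 0 of 6 and 0 of 6 (0.17 and 0.34). Adam12, a metalloprotease of activated fibroblasts, did pass in fibroblasts, at 11.2, 16.6 and 4.25 CPM in PBS/vehicle and 444, 66.5 and 43.0 CPM in bleomycin/vehicle (4.00, SE 0.95, adjusted p = 0.042).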

How the data were processed

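Nuclei sorted on DAPI from 12 frozen lungs, 1 mouse and 1 library each, were profiled with 10x 3' chemistry. The authors deposited filtered matrices of raw UMI counts per gene and barcode, made with Cell Ranger 7.2.0 per the file headers (the submitters' notes name Cell Ranger 7.0 and build mm10). Nuclei with 200 to 6000 genes and at most 5% mitochondrial UMIs were kept, which left 47319 of 49163, and 2708 doublets predicted by Scrublet were removed. Clustering used scanpy 1.11.5 with Leiden resolution 1 on 2000 variable genes and 30 principal components corrected by library with the Harmony method, rewritten for this work. Clusters were named from marker lists, which left 1607 nuclei unnamed. The authors' own ambient RNA correction was not repeated. UMIs were summed per library and class (at least 20 nuclei) and tested over all genes with edgeR 4.0.16 (quasi-likelihood test, TMM, filterByExpr, Benjamini-Hochberg, two-sided) in 1 fit over all libraries, with DESeq2 1.42.0 as an alternative. The method was tested on simulated data. p-values measure the spread between mice, 3 per group, or 2 in each bleomycin group for arterial endothelium. Intervals on counts cover counting error only. The members and lists were chosen with earlier results of these data known. Named are the 8 members, the 5 genes most like each, pathway genes called in a class where a member was called (up to 4 per class and comparison, by size), the 4 largest called changes per comparison, and Eln, Rasa1, Adam10 and Nr2f2; Dll4 and Nrp2 as vessel identity genes and Ephb1 in aerocytes were singled out after their values were seen. Same-numbered PBS/NVP and PBS/vehicle libraries deviated together in gene expression (r of deviations 0.46 to 0.79 in 3 of 3 pairs). The labels state no pairing of mice. Replicate 1 was also the deepest library of both groups (30147367 and 22257514 UMIs in nuclei used), and depth, run and pairing cannot be told apart here. A fit with the replicate number as a block also gave 0 calls for these groups.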

Additional observations from a re-analysis of the deposited data

Results flagged for a closer look

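These pairs of member and class stood outside the tests for low counts or few libraries, and every library of 1 group was above every library of its control. Only higher levels against a PBS group, from more than 3 UMIs, were looked for. Among tested genes, groups did not overlap in either direction in 18.4% of tests after bleomycin. The share was 10.1% for bleomycin/NVP against PBS/NVP and 5.85% for PBS/NVP against PBS/vehicle. The share among untested pairs of all genes is not given here. Ephb1 in aerocytes had 127 UMIs in bleomycin/vehicle and 2 in PBS/vehicle. Ephb1 in fibroblasts had 24 UMIs in bleomycin/vehicle and 2 in PBS/vehicle (ratio of levels 8.37, exact 95% interval 2.08 to 73.1). Ephb1 in mesothelium had 163 UMIs in 2 PBS/NVP libraries and 67 in 2 PBS/vehicle libraries (1.35, 1.01 to 1.82). Ephb1 in arterial endothelium had 10 UMIs in bleomycin/NVP and 6 in PBS/NVP, where libraries were deeper (8.31, 2.74 to 27.8). Ephb3 in venous endothelium had 9 UMIs in bleomycin/vehicle and 0 in PBS/vehicle. Ephb4 had 28 UMIs in alveolar macrophages (2.50, 1.07 to 6.78) and 65 in ciliated epithelium (3.74, 1.72 to 9.67) of bleomycin/vehicle, each against 7 in PBS/vehicle. Carried-over endothelial RNA moved with both: scaled from the pan-endothelial markers it would give 29.6 UMIs in alveolar macrophages and 37.2 in ciliated epithelium of bleomycin/vehicle, and 13.6 and 4.02 in PBS/vehicle, and its part was not tested. Efnb2 had 64 UMIs in B lymphocytes of bleomycin/vehicle and 2 in PBS/vehicle (12.9, 3.42 to 108). Of these 57 came from bleomycin/vehicle replicate 3, and the same estimate gives 48.4 of the 65 UMIs of all 3 libraries. At resolution 2 a cluster of 31 nuclei with markers of both B lymphocytes and general capillaries split off, 83.9% of it from that replicate. Pairs were picked for this separation and for an interval above 1, so that the intervals exclude 1 was fixed by the choice. The intervals cover counting error only and not the spread between mice. No test of these pairs is given here.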

How the results depend on the processing

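Counts of calls over classes depended on the settings. For bleomycin/vehicle against PBS/vehicle, 0 member calls became 2 with no filter on low counts, 1 with a replicate block and 0 to 3 when 1 library was left out (3 without bleomycin/vehicle replicate 3, 1 without PBS/NVP replicate 2 or 3 or bleomycin/NVP replicate 2). For bleomycin/NVP against bleomycin/vehicle, 1 became 2 with DESeq2, 5 with no filter, 2 with the replicate block, 0 with only those groups in the fit, 0 with the stricter filter on nuclei (500 UMIs or more, mitochondrial share up to 1%), and 0 to 5 when 1 library was left out (5 without bleomycin/vehicle replicate 3, 2 without PBS/vehicle replicate 1 or 3, and 0 without bleomycin/vehicle replicate 1 or 2 or any bleomycin/NVP replicate). Some of these calls lay outside the 25 main tests. With no filter, and without bleomycin/vehicle replicate 3, both comparisons called Ephb1 in aerocytes. It was also the call after bleomycin without PBS/NVP replicate 2 or 3 or bleomycin/NVP replicate 2. Both called Efnb2 in alveolar macrophages without bleomycin/vehicle replicate 3, as did the inhibitor comparison with no filter. Ephb1 in aerocytes was singled out for its values, so its calls add no support. The interaction gave 1 with doublets kept and 0 to 1 when 1 library was left out. Pathway calls after bleomycin (28) became 79 with no filter, 52 with the block, 16 with only those groups, 47 with doublets kept, 9 with the stricter nuclei and 9 to 93 when 1 library was left out. With the inhibitor after bleomycin (38) they became 72, 63, 21, 60, 14 and 6 to 88. No filter gave 2 pathway calls for PBS/NVP against PBS/vehicle and 1 for bleomycin/NVP against PBS/NVP. The cause was not tested. Ephb4 in general capillaries after bleomycin (-0.07) turned to 0.11 with the block and ranged from -0.28 (without PBS/vehicle replicate 2) to 0.34 (without PBS/vehicle replicate 1) when 1 library was left out, with 0.05 without bleomycin/vehicle replicate 2, none called. The share of Ephb4 UMIs from endothelium stayed at 58.5% to 63.8%. Outside the comparison of PBS/NVP with PBS/vehicle, deviations of same-numbered libraries correlated at -0.15 to 0.33, and the labels state no pairing there either. The calls gained with the block were Efnb2 in fibroblasts, at 0.81 (adjusted p = 0.036) after bleomycin and -1.14 (adjusted p = 0.0083) with the inhibitor. In 16 of 24 cases a library correlated best with its own number. Only 25 of 96 pairs of member and class had counts enough for a main test, and a change in the others was not looked for there.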
